A study of Mus musculus with 8 samples.

Results

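The delayed targets of ERK signalling examined here are 9 genes: the PEA3 factors Etv1, Etv4 and Etv5, the ETS factors Ets1 and Ets2, the AP-1 subunit Fosl1, and Phlda1, Plaur and Tfpi2. They were selected by name, and each was read from the probe set (a group of array probes for 1 transcript) with the highest mean among those annotated to that gene alone, which gave 9 of the 19938 genes in the series. RNA was taken from nerve sheath malignancies (MPNST) that arose in NPcis mice, a model with mutant Nf1 and Trp53 on the same chromosome copy; every group shares this genotype, and neither age nor the number of animals is stated in the labels. The 4 groups of 2 arrays had received vehicle, rapamycin (an inhibitor of mTORC1, 5 mg/kg, intraperitoneal), PD-0325901 (an inhibitor of MEK, the kinase that activates ERK, 1.5 mg/kg by mouth and 2 times a day) or the 2 drugs together (the combination). Treatment lasted 14 hours. The labels do not say that the arrays of a group are separate animals, so the errors below may be technical. They are bulk samples, in which fewer cells of a type and less RNA per cell cannot be told apart.

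Nf1 encodes neurofibromin, which switches Ras off, so its loss can leave the Ras, RAF, MEK and ERK kinase cascade active. The arrays do not measure that activity in these tumours. ERK first induces immediate early genes and feedback inhibitors. A later set follows, built by transcription factors that ERK phosphorylates or whose repressor it removes. The PEA3 factors are held down by the repressor Cic until ERK inactivates it, Ets1 and Ets2 are phosphorylated through ERK, and Fosl1 (Fra-1) is both induced and stabilised by ERK. Plaur, the receptor that gathers the protease urokinase at the cell surface, is a known target of AP-1 factors.

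The sequences in front of 3 of the genes are shown because these 3 had separate levels with and without the MEK inhibitor. Each is the 250 bases before a transcription start in RefSeq (GRCm38.p6), 5′ to 3′ on the strand of the gene. The Plaur window is chr7:24462233-24462482 on the plus strand, inside the annotated gene (chr7:24460937-24475970) and before one of its starts, with its AP-1 motif in capitals. The Ets2 window is chr16:95702157-95702406 on the plus strand, directly before the gene (chr16:95702407-95721049), with its ETS core in capitals, read on the other strand. The Etv5 window is chr16:22439571-22439820 on the minus strand, directly before the gene (chr16:22381313-22439570), and has no capitals because no searched motif was matched.
Plaur: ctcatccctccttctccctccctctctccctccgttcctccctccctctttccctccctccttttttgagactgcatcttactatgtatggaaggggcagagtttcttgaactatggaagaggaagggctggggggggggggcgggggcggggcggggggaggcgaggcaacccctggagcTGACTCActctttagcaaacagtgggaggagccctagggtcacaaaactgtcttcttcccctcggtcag
Ets2: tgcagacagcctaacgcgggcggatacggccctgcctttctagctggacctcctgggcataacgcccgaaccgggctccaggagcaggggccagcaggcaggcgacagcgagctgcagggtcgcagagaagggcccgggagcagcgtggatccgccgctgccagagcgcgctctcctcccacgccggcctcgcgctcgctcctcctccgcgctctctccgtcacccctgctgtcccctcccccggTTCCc
Etv5: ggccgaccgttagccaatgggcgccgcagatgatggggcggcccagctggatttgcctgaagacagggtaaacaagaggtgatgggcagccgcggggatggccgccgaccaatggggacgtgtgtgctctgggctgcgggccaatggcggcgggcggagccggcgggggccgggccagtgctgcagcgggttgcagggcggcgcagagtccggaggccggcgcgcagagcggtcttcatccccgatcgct

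Windows of this kind were at hand for 5 of the 9 genes. Both strands were searched for the AP-1 motif (TGACTCA or TGAGTCA), an ETS motif (CCGGAAG), the Cic motif (TGAATGAA or TGAATGGA) and the bare ETS core (GGAA, which the ETS motif contains and which was added after the other searches). Of all 32851 windows, 4.46% held the AP-1 motif, 6.91% the ETS motif, 2.07% the Cic motif and 93.45% the ETS core. Plaur held 1 AP-1 match, which begins at position -69 from the start, and 6 ETS cores, which are not in capitals. Ets2 held 1 ETS core at position -5, and none of the AP-1, ETS or Cic motifs. The window before a second Etv5 start, chr16:22438369-22438618 inside the gene, had 4 ETS cores and none of the longer motifs.

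Ets2 and Plaur were the members with the largest differences between the 4 arrays with PD-0325901 and the 4 without it, and Etv5 followed. Their levels with the drug were 0.608, 0.578 and 0.715 times those without it. In these 3 genes every array with PD-0325901 lay below every array without it. All 9 members had a lower mean with the drug, as did 54% of all genes, but none passed the adjusted threshold of 0.05 (limma, Benjamini-Hochberg over 19938 genes), and 0 of all genes did in this comparison, where 825 genes were lower and 1090 (5.47%) higher at an unadjusted p under 0.05. Etv1, Etv4, Ets1, Fosl1, Phlda1 and Tfpi2 had overlapping arrays.

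**Figure D1:**
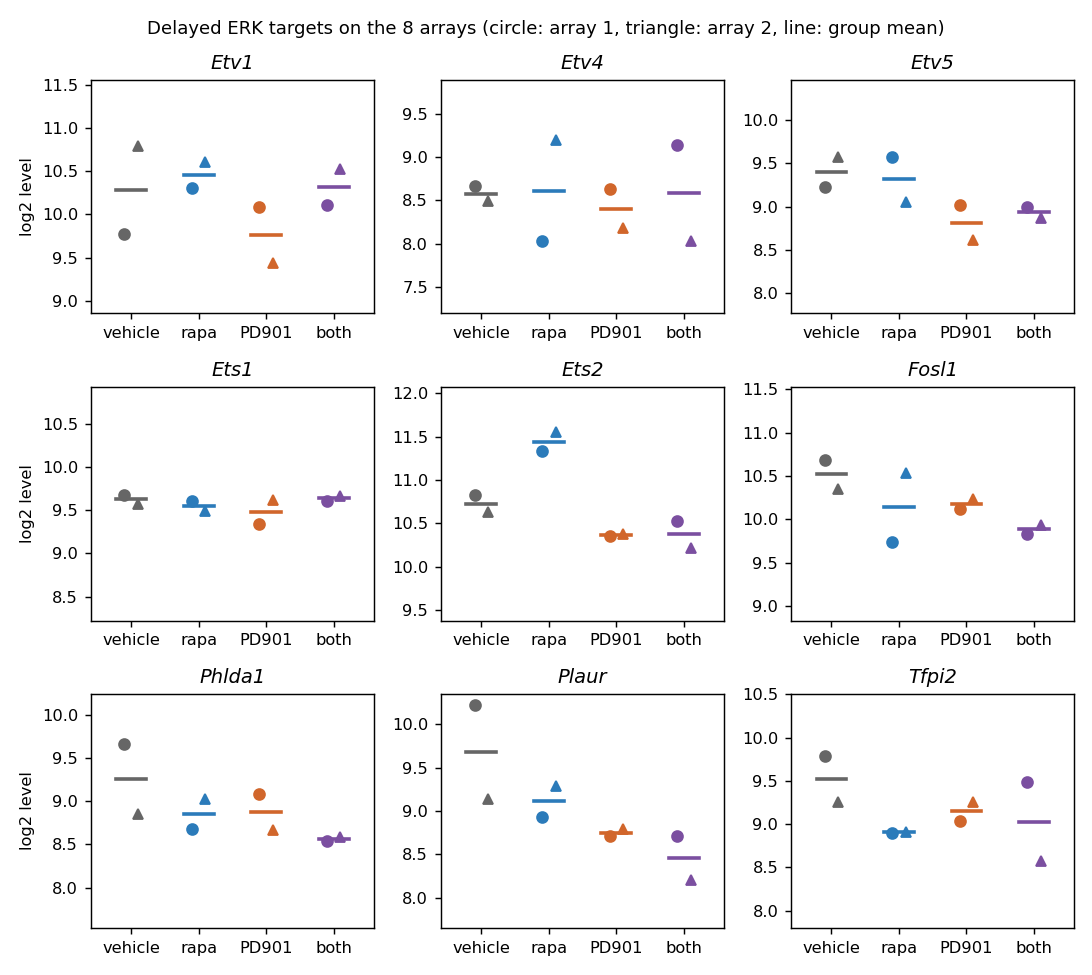
Log2 level (vertical axes, all of the same length in log2 units) of the 9 delayed ERK targets in vehicle, rapamycin (rapa), PD-0325901 (PD901) and combination (both) arrays, with a line at each group mean. Ets2 sits at 11.33 and 11.55 with rapamycin alone and between 10.21 and 10.53 in the arrays with PD-0325901, while Etv4 is spread over more than 1 log2 unit within the rapamycin and the combination groups.

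Among the PEA3 factors, Etv5 read 9.23 and 9.58 on the vehicle arrays, 9.57 and 9.06 with rapamycin, 9.02 and 8.62 with PD-0325901 and 8.99 and 8.87 with the combination. The 4 arrays with the MEK inhibitor were the 4 lowest, and the nearest arrays of the 2 sides were 9.02 and 9.06. The log2 difference was -0.48 (standard error, SE, 0.16; 95% confidence interval -0.89 to -0.08; adjusted p = 0.438 by limma, n = 4 and 4). A second Etv5 probe set gave -0.40.

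Etv1 read 9.78 and 10.79 on the vehicle arrays, 10.31 and 10.61 with rapamycin, 10.09 and 9.44 with PD-0325901 and 10.11 and 10.52 with the combination. The vehicle arrays alone were 1.02 log2 apart, and arrays with and without the drug overlapped. Its log2 difference was -0.33 (SE 0.27, adjusted p = 0.804 by limma), and -0.45 for a second probe set of the gene. Leaving out vehicle array 1 gave -0.59, and leaving out vehicle array 2 gave -0.08. Etv4 read 8.67 and 8.49 with vehicle, 8.03 and 9.19 with rapamycin, 8.63 and 8.18 with PD-0325901 and 9.13 and 8.03 with the combination. It had the largest gap within a group of any member, 1.17 log2 between the rapamycin arrays, and a log2 difference of -0.10 (SE 0.35, 95% confidence interval -0.96 to 0.75), so that interval holds changes well beyond that of Etv5 in either direction.

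Ets2 read 10.82 and 10.63 on the vehicle arrays, 11.33 and 11.55 with rapamycin, 10.35 and 10.37 with PD-0325901 and 10.53 and 10.21 with the combination. The rapamycin arrays were the highest, the vehicle arrays came next, and the 4 arrays with PD-0325901 were the lowest. The log2 difference with PD-0325901 was -0.72 (SE 0.11, 95% confidence interval -0.98 to -0.46, adjusted p = 0.148 by limma), rank 71 by p among the 19938 genes, where the smallest adjusted p of any gene was 0.141. Ets1, a close relative of Ets2 that endothelial cells and lymphocytes also express, stayed within a narrow band: 9.67 and 9.58 with vehicle, 9.61 and 9.49 with rapamycin, 9.34 and 9.62 with PD-0325901 and 9.61 and 9.67 with the combination. Its log2 difference was -0.03 with a 95% confidence interval of -0.24 to 0.19.

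Fosl1 was high in both vehicle arrays (10.69 and 10.35), read 9.73 and 10.54 with rapamycin, 10.11 and 10.23 with PD-0325901, and was lower in both combination arrays (9.83 and 9.94). Rapamycin array 1 was the lowest of all 8, so the arrays with and without PD-0325901 overlapped. The log2 difference was -0.30 (SE 0.19, adjusted p = 0.717 by limma), with -0.50 without rapamycin array 1 and -0.10 without rapamycin array 2.

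Phlda1, a pleckstrin homology-like domain protein that growth factors induce, read 9.66 and 8.85 with vehicle, 8.68 and 9.02 with rapamycin, 9.09 and 8.66 with PD-0325901 and 8.54 and 8.58 with the combination. Both combination arrays were the lowest and vehicle array 1 stood highest. The log2 difference with PD-0325901 was -0.33 (SE 0.21, adjusted p = 0.711 by limma), and -0.13 without vehicle array 1.

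Plaur read 10.22 and 9.14 on the vehicle arrays, 8.93 and 9.29 with rapamycin, 8.71 and 8.79 with PD-0325901 and 8.72 and 8.20 with the combination. Vehicle array 1 stood above every other array, 1.09 log2 over the other vehicle array, and all 4 arrays with PD-0325901 were below the other 4. The log2 difference was -0.79 (SE 0.26, 95% confidence interval -1.44 to -0.15, adjusted p = 0.428 by limma), and -0.52 without vehicle array 1. Tfpi2, a secreted inhibitor of serine proteases, read 9.78 and 9.25 with vehicle, 8.90 and 8.92 with rapamycin, 9.04 and 9.26 with PD-0325901 and 9.49 and 8.58 with the combination. The combination arrays spanned both rapamycin arrays, and the log2 difference with PD-0325901 was -0.12 (SE 0.23, adjusted p = 0.933 by limma).

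Counted together, 3 of the 9 members were lower without overlap, where 2.39% of all genes were, and 3 of 9 (the same genes) were lower at an unadjusted p under 0.05, where 4.14% of all genes were. The median log2 difference of the 9 members was -0.33, against -0.01 over all genes. These counts describe a set chosen as ERK targets with earlier results of these data known. Without each array in turn, 7 to 9 members had a lower mean. Fosl1 was also lower without overlap when rapamycin array 1 was left out, where 6.25% of all genes were, and Phlda1 when PD-0325901 array 1 was left out, where 4.43% of all genes were.

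**Figure D2:**
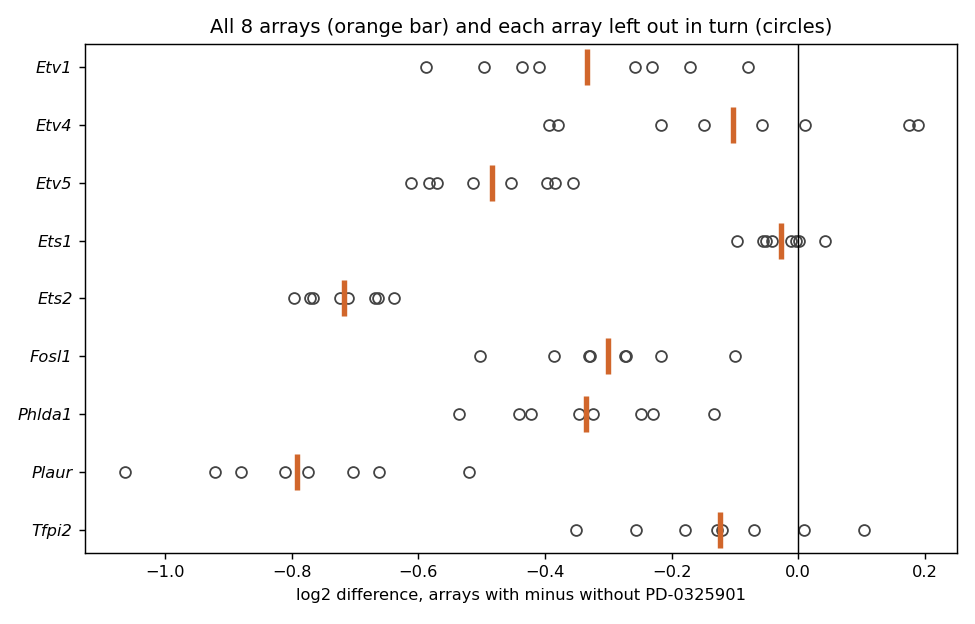
Log2 difference between arrays with and without PD-0325901 (horizontal axis) for each member, over all 8 arrays (orange bar) and with each array left out in turn (circles). The circles run from -0.80 to -0.64 for Ets2 and from -0.61 to -0.36 for Etv5, whereas Etv4, Ets1 and Tfpi2 have circles on both sides of 0. With 2 arrays per group, the width of each range is set by the largest gap within a group, and shows no more than that gap. The Ets2 bar is the mean of -0.37 without rapamycin and -1.07 with it.

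PD-0325901 against vehicle and the combination against rapamycin share no array, and ask whether MEK inhibition goes with lower levels both without and with rapamycin. All 9 members had a lower mean with PD-0325901 alone, where 53.8% of all genes did, and 7 of 9 did when PD-0325901 was added to rapamycin, where 51.7% of all genes did. Without overlap, 4 members were lower with PD-0325901 alone (Etv5, Ets2, Fosl1 and Plaur; 20.9% of all genes) and 4 when it was added to rapamycin (Etv5, Ets2, Phlda1 and Plaur; 15.1% of all genes). Ets1 was higher without overlap in the latter comparison, as were 16% of all genes.

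Ets2 differed by -0.37 log2 (SE 0.15, adjusted p = 0.862 by limma) between PD-0325901 and vehicle and by -1.07 log2 (SE 0.15, adjusted p = 0.573 by limma) between the combination and rapamycin. The second value had rank 13 by p among 19938 genes and stayed between -1.23 and -0.91 without any 1 array. Leaving out 1 array keeps at least 1 of the rapamycin arrays, which were both high in Ets2 and stood apart in tissue markers (below). Plaur differed by -0.93 (SE 0.37) and -0.65 (SE 0.37), and Etv5 by -0.59 (SE 0.23) and -0.38 (SE 0.23). Plaur's value against vehicle was -0.39 without vehicle array 1, and its value against rapamycin was -0.39 without combination array 2. Etv5 moved to -0.39 against vehicle without PD-0325901 array 2 and to -0.13 against rapamycin without rapamycin array 1. Fosl1 differed by -0.35 and -0.25 and Phlda1 by -0.38 and -0.29, each with an SE of 0.27 to 0.29. Without vehicle array 1 the difference from vehicle was 0.02 for Phlda1 and -0.18 for Fosl1. Without rapamycin array 2 the difference from rapamycin was 0.15 for Fosl1 and -0.12 for Phlda1. The 95% confidence intervals that left out 0 were those of Ets2 between the combination and rapamycin (-1.44 to -0.70) and of Etv5 and Plaur between PD-0325901 and vehicle, whose upper ends were both -0.02.

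**Figure D3:**
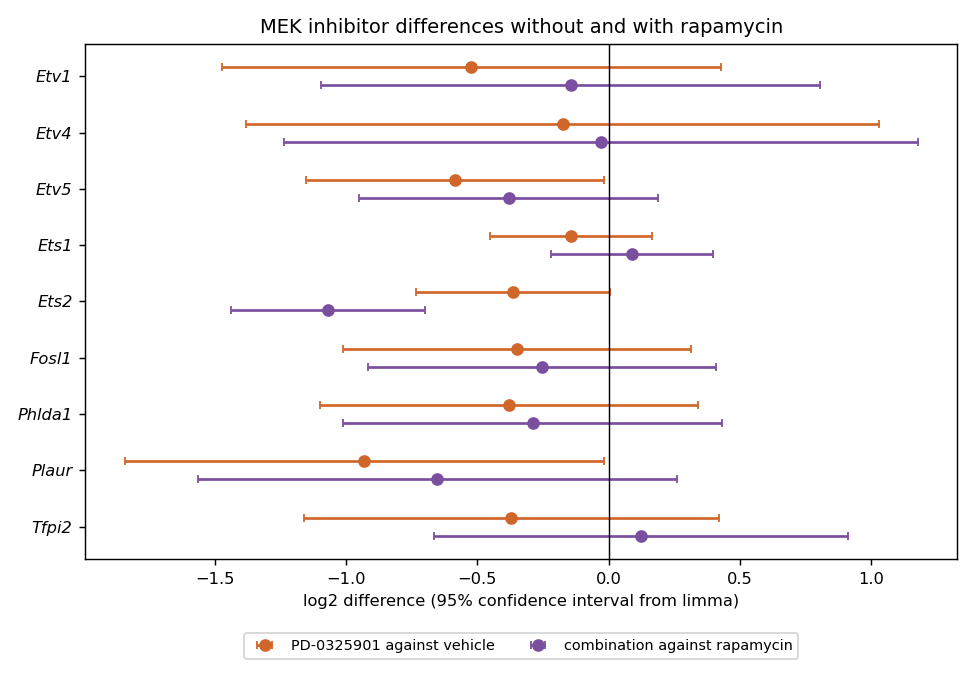
Log2 difference with its 95% confidence interval (horizontal axis) for PD-0325901 against vehicle (orange) and for the combination against rapamycin (purple). Each difference is of 2 arrays against 2, but the spread of a gene is estimated from all 8 arrays, so its 2 intervals are equally wide. The Ets2 interval runs from -1.44 to -0.70 with rapamycin present, and the intervals of Etv1 and Etv4 reach far to both sides.

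Rapamycin alone went with the highest Ets2 levels of the series. Ets2 was 0.72 log2 higher than with vehicle (SE 0.15, adjusted p = 0.964 by limma), 1.64 times the vehicle level, and both rapamycin arrays lay above both vehicle arrays, as for 12.5% of all genes. With PD-0325901 present the corresponding difference was 0.01 (SE 0.15, 95% confidence interval -0.36 to 0.38). The test of the difference between these 2 values, the interaction of the drugs, gave -0.70 (SE 0.21, adjusted p = 1.0 by limma). Ets2 was the 1 member with an unadjusted p under 0.05 for the interaction, a side on which 1.14% of all genes fell.

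Averaged over the absence and presence of PD-0325901, the arrays with rapamycin were lower by a log2 difference of -0.34 in Fosl1 (SE 0.19), -0.36 in Phlda1 (SE 0.21), -0.43 in Plaur (SE 0.26) and -0.36 in Tfpi2 (SE 0.23), and higher by 0.36 in Etv1 (SE 0.27) and 0.36 in Ets2 (SE 0.11). Leaving out 1 array moved 5 of these values by more than 1.5 times. Without vehicle array 1, Plaur had -0.16, Phlda1 -0.16 and Etv1 0.11. Fosl1 had -0.13 without rapamycin array 1, and Tfpi2 -0.14 without combination array 2. No member separated the 4 arrays with rapamycin from the 4 without it, while 1.94% of all genes were lower and 1.41% higher without overlap. The adjusted p-values of the members ran from 0.774 to 0.994 (limma). Tfpi2 with rapamycin alone was -0.61 against vehicle (SE 0.32), with both rapamycin arrays below both vehicle arrays, as for 17.9% of all genes, and it was -0.35 without vehicle array 1. Etv1 was 0.55 higher with the combination than with PD-0325901 (SE 0.39), without overlap, as for 16.3% of all genes, and 0.23 higher without PD-0325901 array 2. Fosl1 and Phlda1 were lower without overlap in the same comparison, as for 18.2% of all genes.

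The combination was set against vehicle to describe both drugs together. In 5 members both combination arrays lay below both vehicle arrays: Etv5, Ets2, Fosl1, Phlda1 and Plaur, where 22.3% of all genes did. The log2 differences were -1.22 for Plaur (SE 0.37), -0.69 for Phlda1 (SE 0.29), -0.64 for Fosl1 (SE 0.27), -0.47 for Etv5 (SE 0.23) and -0.35 for Ets2 (SE 0.15). Plaur had the smallest adjusted p of the members, 0.446 (limma), and its difference was -0.68 without vehicle array 1. Without the same array the Phlda1 difference was -0.29. Etv5 had -0.29 without vehicle array 2, and Ets2 -0.19 without combination array 2. Vehicle is the shared control of this comparison and of PD-0325901 against vehicle, so the 2 sets of values are not independent.

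The genes that act around the members were described from lists. Over all genes, 4.14% were lower and 5.47% higher at an unadjusted p under 0.05 for PD-0325901. Of the 9 ERK feedback inhibitors, 0 passed the adjusted threshold in either direction for PD-0325901, and 4 were lower at an unadjusted p under 0.05. The ERK phosphatase Dusp6 had a log2 difference of -0.76 (SE 0.29), and the Ras pathway inhibitors Spry4 and Spry2 had -0.35 (SE 0.16) and 0.18 (SE 0.24). Of the 12 immediate early genes, 0 passed, 5 were lower and 1 (the stress factor Atf3, named after its value was seen) was higher at an unadjusted p under 0.05. Fos and Egr1, transcription factors induced within minutes of ERK activation, had -0.89 (SE 0.30) and -0.89 (SE 0.33), and Ier3 had -0.07 (SE 0.22). Of 5 EGF family ligands 0 passed and 1 was lower at an unadjusted p under 0.05, namely Hbegf at -1.27 (SE 0.21), with Ereg at -0.47 (SE 0.24) and Tgfa at -0.09 (SE 0.07).

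Fosl1 acts as a dimer with Jun proteins. Of the 9 other AP-1 subunits 0 passed, and at an unadjusted p under 0.05 there were 3 lower and 3 higher. Fos, Fosb and Junb are also among the immediate early genes, and Fos and Fosb were lower in both counts. Jun, Junb and Jund had log2 differences of 0.31 (SE 0.27), -0.62 (SE 0.35) and 0.23 (SE 0.09). Of 15 other ETS factors 0 passed, with 3 lower and 2 higher at an unadjusted p under 0.05 and a median of -0.07. The repressors Etv3 and Etv6 had 0.27 (SE 0.10) and -0.17 (SE 0.16), and Elk1, a direct ERK substrate, had -0.38 (SE 0.09). Among 8 genes that control the PEA3 factors, Cic had 0.16 (SE 0.27) and its partners Atxn1 and Atxn1l had 0.18 (SE 0.15) and 0.27 (SE 0.17); 0 reached even an unadjusted p under 0.05 in either direction.

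The partners of Plaur had overlapping arrays with and without the drug. Urokinase itself, Plau, had a log2 difference of -0.53 (SE 0.55), the tissue plasminogen activator Plat 0.29 (SE 0.33) and the inhibitor Serpinb2 -0.16 (SE 0.13). Of the 10 measured genes of that system 0 passed, 0 were lower and 2 higher at an unadjusted p under 0.05, and the median was 0.03. Around Tfpi2, tissue factor F3 had 0.68 (SE 0.47), Tfpi -0.46 (SE 0.43) and F7 0.05 (SE 0.10), and 0 of 7 measured genes passed either threshold. Of 3 measured genes listed with Phlda1, 0 passed and 1 was lower at an unadjusted p under 0.05, namely Phlda3 at -0.62 (SE 0.24). Phlda2 had 0.08 (SE 0.25) and Mdm2 had -0.29 (SE 0.23), which was also the list's median.

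Matrix proteases whose promoters AP-1 and ETS factors bind had a median of -0.49 over 9 genes, with 0 past the adjusted threshold and 3 lower at an unadjusted p under 0.05. The collagenase Mmp13 read 9.86 and 7.36 with vehicle, 8.77 and 9.80 with rapamycin, 6.61 and 7.09 with PD-0325901 and 6.93 and 7.54 with the combination. Its arrays with the drug were all low, but vehicle array 2 lay among them. The log2 difference was -1.90 (SE 0.58, adjusted p = 0.383 by limma), with Mmp3 at -0.59 (SE 0.68) and Mmp9 at -0.49 (SE 0.53). Of 14 genes from ERK-dependent tumour signatures 0 passed and 2 were lower at an unadjusted p under 0.05. The 2 include Elk3, also counted among the other ETS factors. Ccnd1, Cd44 and Emp1 had -0.17 (SE 0.22), -0.22 (SE 0.13) and -0.10 (SE 0.10). In the cascade itself, 0 of 8 measured genes reached an unadjusted p under 0.05, with Nf1 at -0.27 (SE 0.15), Nras at 0.03 (SE 0.10) and Araf at -0.07 (SE 0.09).

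**Figure D4:**
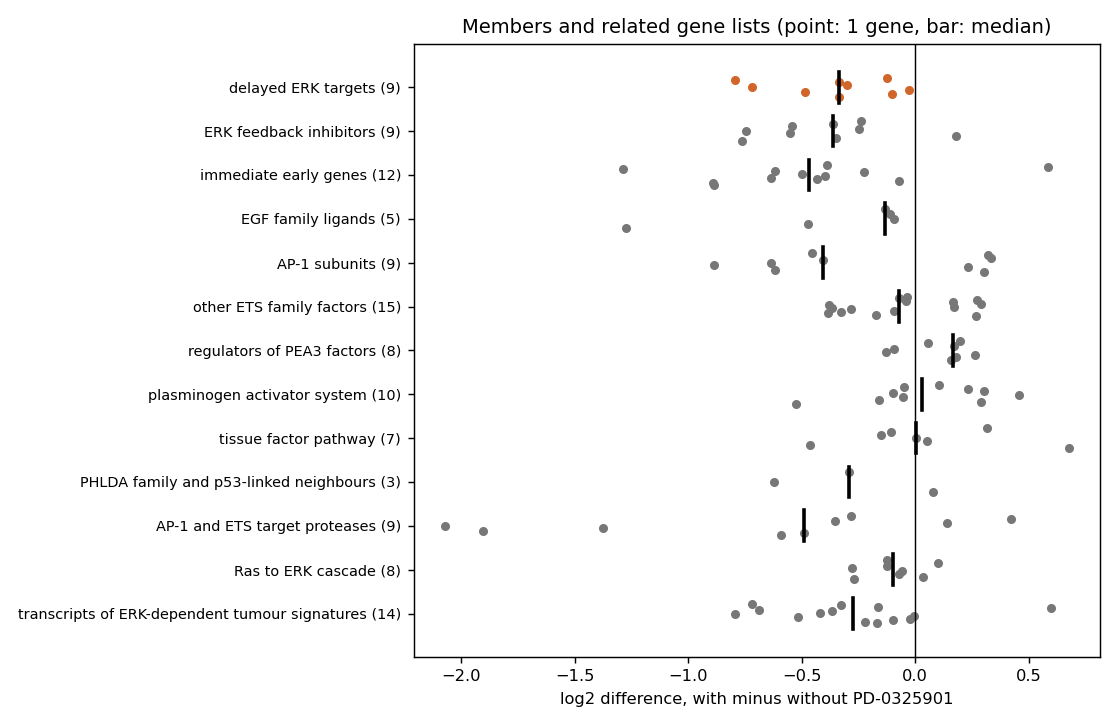
Log2 difference between arrays with and without PD-0325901 (horizontal axis) of every measured gene in each list, with the number of genes in brackets and a bar at the median. All 9 members lie below 0 with a median of -0.33, next to medians of -0.36 for the feedback inhibitors and -0.47 for the immediate early genes, while the plasminogen activator list has a median of 0.03.

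The genes with the most similar profiles over the 8 arrays were found from the root mean square difference of log2 values centred on each gene's mean. For Plaur the nearest gene was Dusp5, an ERK phosphatase, at 0.19 log2, then Lpcat4 at 0.20, where the median over all genes was 0.57. For Ets2 they were AA414768 (0.13) and Disp2 (0.15), for Etv5 Wdr75 (0.10) and Dlx2 (0.12), and for Fosl1 Prc1 and Timm10 (0.09 and 0.10). Phlda1 was nearest to Dohh and Pop4 (0.11 each), Tfpi2 to Gbe1 (0.12) and Atp13a3 (0.13), Etv4 to Nxn (0.07) and Fam149a (0.15), and Etv1 to Zfp951 (0.18) and Btbd8 (0.19). Ets1, which varied least, was nearest to 4932412D23Rik and Sstr5 (0.05 each). Among the members themselves the closest pair was Fosl1 and Phlda1 (0.21) and the most distant Etv1 and Plaur (0.76).

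For markers of other cells, 0 in any list passed the adjusted threshold for PD-0325901 (limma), and the list means overlapped between arrays with and without it. Over all genes, 54% had a lower and 46% a higher mean with it, and 4.14% were lower and 5.47% higher at an unadjusted p under 0.05. Macrophages can express Plaur and Ets2, and the mean log2 level of 12 macrophage markers was 10.80 to 11.34 with PD-0325901 and 10.59 to 10.83 without it. Of these markers 11 had a higher mean with the drug, 8 of them at an unadjusted p under 0.05, with Adgre1 at 0.63 (SE 0.10) and Csf1r at 0.54 (SE 0.13). The mean of 12 endothelial markers was 9.18 to 9.65 with and 9.39 to 10.16 without PD-0325901. Of these 12 markers, 11 had a lower mean with it, 6 of them at an unadjusted p under 0.05. The 6 include Erg, which is also among the other ETS factors. Pecam1 had -0.51 (SE 0.22) and Cdh5 -0.65 (SE 0.18). All 11 measured markers of T and NK cells had a higher mean with the drug, 7 of them at an unadjusted p under 0.05. Their average was 7.54 to 8.46 with it and 7.04 to 7.63 without it. Neutrophil markers, another source of Plaur, overlapped at 6.85 to 8.02 with and 7.03 to 7.39 without the drug. Of these, 7 of 10 had a higher mean with it, 1 of them at an unadjusted p under 0.05. The part of these cells in the differences of Ets2, Plaur and Etv5 was not tested.

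Both arrays with rapamycin alone, where Ets2 was highest, also stood apart in tissue markers, each in another one. On rapamycin array 1 the 5 adipocyte markers averaged 10.13 (7.08 to 7.81 on the other arrays), and on rapamycin array 2 the 7 skeletal muscle markers averaged 10.11 (7.60 to 9.07 on the others). Rapamycin array 1 also had the highest mean of the 12 endothelial markers and of the 7 mast cell markers, with the mast cell protease Cpa3 at 10.82. Ets2 was 0.61 log2 above vehicle with rapamycin array 1 alone and 0.82 with rapamycin array 2 alone, and the part of these tissues in it was not tested. Tissue markers also differed outside the rapamycin arrays. The mean of 10 fibroblast markers was 10.25 on vehicle array 1 and 10.24 on rapamycin array 2, against 10.86 to 11.76 on the rest. Vehicle array 1 was the highest array for Plaur and Phlda1, and the part of fibroblasts in this was not tested. PD-0325901 array 2 had the highest mean of 3 erythroid markers, 9.67. The Schwann cell markers S100b and Sox10 read 7.12 to 7.32 and 7.85 to 8.17 over the 8 arrays, and 8 such markers averaged 7.32 to 7.66, against medians of 7.79 to 7.90 for all probe sets on an array.

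**Figure D5:**
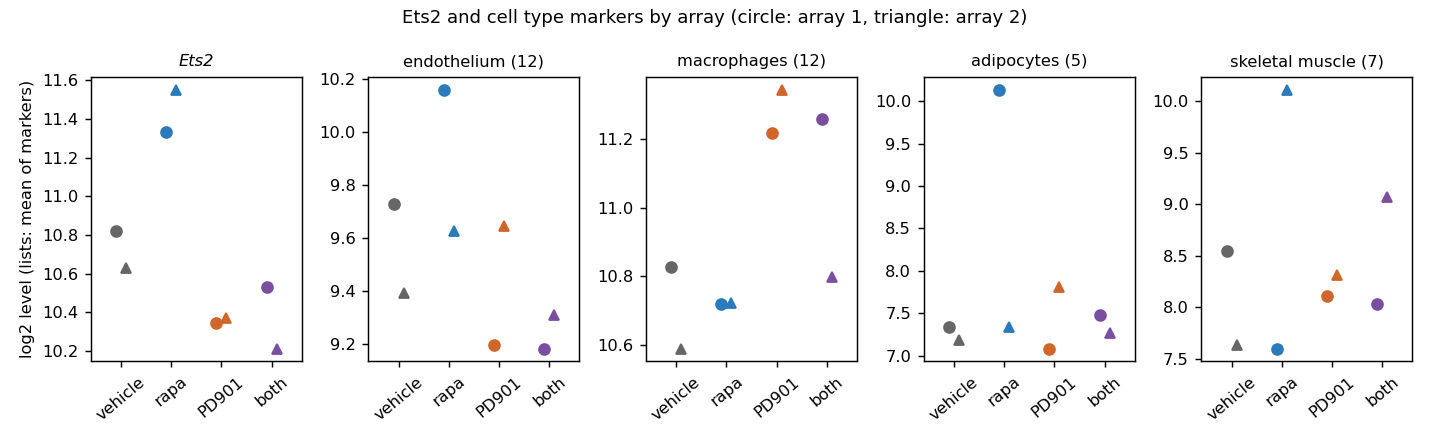
Log2 level of Ets2 and mean log2 level of endothelial, macrophage, adipocyte and skeletal muscle markers (vertical axes, each with its own range; number of genes in brackets) on each array of the 4 groups. Ets2 is high on both rapamycin arrays, of which array 1 has adipocyte markers at 10.13 and array 2 skeletal muscle markers at 10.11.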

How the data were processed

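The deposited values, 1 per probe set and array on 8 arrays, are on the log2 scale; no label states this, and it was read from their range (3.36 to 14.36, above the largest natural log of a 16-bit value, 11.09). Which software, background correction and normalization the authors applied is not known from the labels. Per the labels' protocols, RNA was taken up in Trizol, cleaned on RNeasy columns and amplified with a NuGEN Applause kit. Of 35512 probe sets, 21789 are annotated to 1 gene, 1621 to several and 12101 to none, and 1 was empty. The probe set with the highest mean represented a gene (19938 genes, no filter on low values). Groups and array numbers came from the titles. All genes were fitted with limma 3.58.1 in R 4.3.3 (4 group means, 4 residual degrees of freedom, two-sided), with Benjamini-Hochberg adjustment over all genes and a threshold of 0.05, after the fit was tested on simulated data. Differences are log2 differences of group means, and a PD-0325901 or rapamycin difference over 4 and 4 arrays is the mean of its values without and with the other drug. The number of arrays limits what a comparison of single groups can show: an exact permutation test of 2 against 2 cannot give a p below 0.333. That floor does not apply to the comparisons of 4 against 4. All 9 members were named in full, and from each pathway list the first 3 measured genes in its written order. For cell types, the first 2 were named for macrophages, endothelium and Schwann cells, Cpa3 alone for mast cells, and none for the other lists. Genes that 2 lists share were also named where their counts overlap. Profiles nearest to a member were limited to 2. The members and lists were chosen with earlier results of these data known. Alternatives were quantile normalization, median centring, a level filter, another variance model, the mean of probe sets, an array number block, a threshold of 0.1, other samples in the fit and leaving out each array. Sequences are from RefSeq tables of GRCm38.p6.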

Additional observations from a re-analysis of the deposited data

Results flagged for a closer look

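Plaur on combination array 2 read 8.20, below the other 3 arrays with PD-0325901 (8.71 to 8.79). The gap to the nearest of them was 0.877 of the range of the 4 arrays. This was the 1 value set apart by such a gap among the 9 members, each examined in 4 groupings of 4 arrays. Chance sets apart about 1 in 20 such groups, so 1 value is no more than chance would give. That rate holds for 4 like arrays, while each grouping holds 2 treatments.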

How the results depend on the processing

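None of the reported differences of single members passed the adjusted threshold of 0.05 under any alternative. For PD-0325901 as a mean over 4 and 4 arrays, Ets2 ranged from -0.80 to -0.64 without 1 array (adjusted p 0.104 to 0.520 over all its alternatives), Plaur from -1.06 to -0.52 and Etv5 from -0.61 to -0.36. Leaving out 1 array turned the direction of Etv4 (range -0.39 to 0.19), Tfpi2 (-0.35 to 0.10) and Ets1 (-0.10 to 0.042), of Phlda1 against vehicle (-0.78 to 0.023), of Fosl1 in the combination against rapamycin (-0.66 to 0.15) and of Ets2 in the combination against PD-0325901 (-0.15 to 0.17), which was also -0.0032 with quantile normalization. The count of all genes past the threshold for PD-0325901 was 0 in the fit of 4 groups and 22 in the fit of 2 groups of 4, none of them a member; leaving out 1 array gave 0 to 8. It was 0 to 9 for PD-0325901 against vehicle and for the combination against vehicle, 0 to 2 for rapamycin over 4 and 4 arrays and for the interaction, and 0 to 15 for rapamycin against vehicle, where the members' median ranged from -0.55 to -0.028. With the array number as a replicate block, Ets2 kept -0.72 and its adjusted p was 0.286. A pairing of arrays by number was not shown: same-numbered deviations correlated at -0.28 to 0.18 over 6 pairs of groups, 1 of them above 0.1. With 2 arrays per group this cannot exclude a pairing. Quantile normalization and median centring shifted the median PD-0325901 difference over all genes, from 4 and 4 arrays, by -0.02 and -0.03. A group left with 1 array was assumed to vary like the others. The ranges without 1 array follow from the gaps between the 2 arrays of a group, and show no more than those gaps do.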
